A study of Mus musculus with 10 samples.

Results

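The genes described here are 43 of the 13920 protein-coding genes listed for whole left kidneys of C57BL/6 mice, and they belong to the solute carrier (SLC) families that hold the transporters of amino acids. They were chosen by symbol, as members of SLC1, SLC3, SLC6, SLC7, SLC36, SLC38 and SLC43, with a gene of the SLC7 family left out by the rule. SLC1 gave 4 genes, SLC3 gave 2, SLC6 gave 12, SLC7 gave 11, SLC36 gave 3, SLC38 gave 8 and SLC43 gave 3. The comparison sets kidneys after unilateral ureteral obstruction (UUO), in which the urine of 1 kidney can no longer drain and the organ dilates, loses tubule function and scars, against kidneys of mice that had a sham operation (Sham). There were 5 libraries of total RNA in each group, all from the same strain and with no further treatment. The time after the operation and the sex of the mice are not given in the labels, nor do they say that each library came from a separate animal. If libraries did not come from separate animals, p-values cover library-to-library spread alone. Not all 43 genes carry amino acids: Slc7a6os is a neighbour of Slc7a6 on the opposite strand and no transporter, Slc43a3 carries purine nucleobases, and Slc6a4 and Slc6a8 carry serotonin and creatine.

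Amino acids filtered at the glomerulus are taken back almost completely by the proximal tubule. Sodium-coupled carriers and exchangers bring them in across the brush border of the cell, and another set of exchangers and uniporters lets them out on the blood side. Several SLC7 proteins, the light chains, work only when joined to an SLC3 protein, the heavy chain, which takes the pair to the cell surface: Slc3a1 (rBAT) serves the brush border and Slc3a2 (4F2hc, CD98) the blood side and most other cells. Other members feed cells at large: SLC38 carriers bring glutamine and alanine into growing and stressed cells, SLC7 carriers of the CAT group bring in arginine, and SLC36 carriers work on lysosomes.

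Values were taken as FPKM, fragments scaled by exon length and library size, which allows levels to be compared between genes per length. A gene was tested if it reached 0.5 FPKM in at least 5 libraries, differences are in log2(FPKM + 1), UUO minus Sham, with standard errors, and a gene was called at an adjusted p below 0.05 over all genes tested (limma, Benjamini-Hochberg). The sum over genes ran from 282172 to 302519 FPKM in UUO libraries, against 327994 to 343018 FPKM in Sham libraries. Read numbers are not part of the tables, which leaves the depth unknown. The library Sham 4 stood apart: across genes its log2 values correlated at 0.965 to 0.974 with the other Sham libraries, which correlated at 0.989 to 0.992 with each other. In genes chosen after their values were seen, Sham 4 held 301.7 FPKM summed over 6 genes of brown fat (Ucp1, Cidea, Cox8b, Adipoq, Plin1 and Cidec), against at most 11.8 FPKM in any UUO library and 5.89 FPKM in any other Sham library. It also held 183 FPKM over 4 genes of the inner medulla and of the response to high salt (Slc14a2, Aqp4, Slc5a3 and Akr1b3), against at most 41.4 FPKM in UUO and 48.3 FPKM in the other Sham libraries. Results that rest on Sham 4 are given with and without it.

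Of the 43 genes, 40 passed the filter and 3 did not (Slc36a2, Slc43a1 and Slc6a12). Slc38a1, Slc38a4 and Slc7a2 reached 0.5 FPKM in all 5 UUO libraries but in 1 Sham library, and Slc1a2 in all 5 UUO libraries but in 2 Sham libraries, so these were tested by virtue of their UUO values. Slc7a12 reached it in 3 Sham libraries, and Slc36a4, Slc7a1, Slc7a5 and Slc7a6 in 4, each beside all 5 UUO libraries. These too passed the filter only with their UUO values. Among the 40 tested, 18 were higher in UUO and 14 lower, which is 45.0% and 35.0%. Among all 13202 genes tested, 58.5% were higher and 16.1% lower. The median difference was 0.08 over the members and 0.40 over all genes tested. With a difference of at least 1 in size, 9 members were called higher (22.5%) and 7 lower (17.5%), beside 18.7% and 5.23% of all genes tested. In 25 members (62.5%) the UUO and Sham values did not overlap, 13 with UUO above and 12 below, beside 59.7% of all genes tested.

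By family, all 6 called SLC38 genes rose, all 5 called SLC6 genes fell, and SLC7 split into 7 that rose, Slc7a6os among them, and 4 that fell. SLC1 split into 2 and 2, and SLC3, SLC36 and SLC43 each had 1 gene that rose and 1 that fell. These splits depend in part on how the libraries are scaled, since the deposited values put the median of all genes 0.40 above 0. Median-of-ratios scaling brought that median to 0.002, and 13 members were then higher and 17 lower (all genes: 4507 higher, 4522 lower). Quantile normalization gave 10 higher and 21 lower members (all genes: 3970 higher, 4793 lower) and rescaling to equal sums 20 higher and 11 lower (all genes: 8874 higher, 1551 lower). Rises of under about 0.5 were those that turned: Slc3a2 and Slc38a7 fell below 0 under median-of-ratios scaling, and Slc1a2, Slc38a4, Slc38a7, Slc38a9 and Slc7a4 under quantile normalization. No called fall rose above 0 under any of the 3 scalings.

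**Figure D1:**
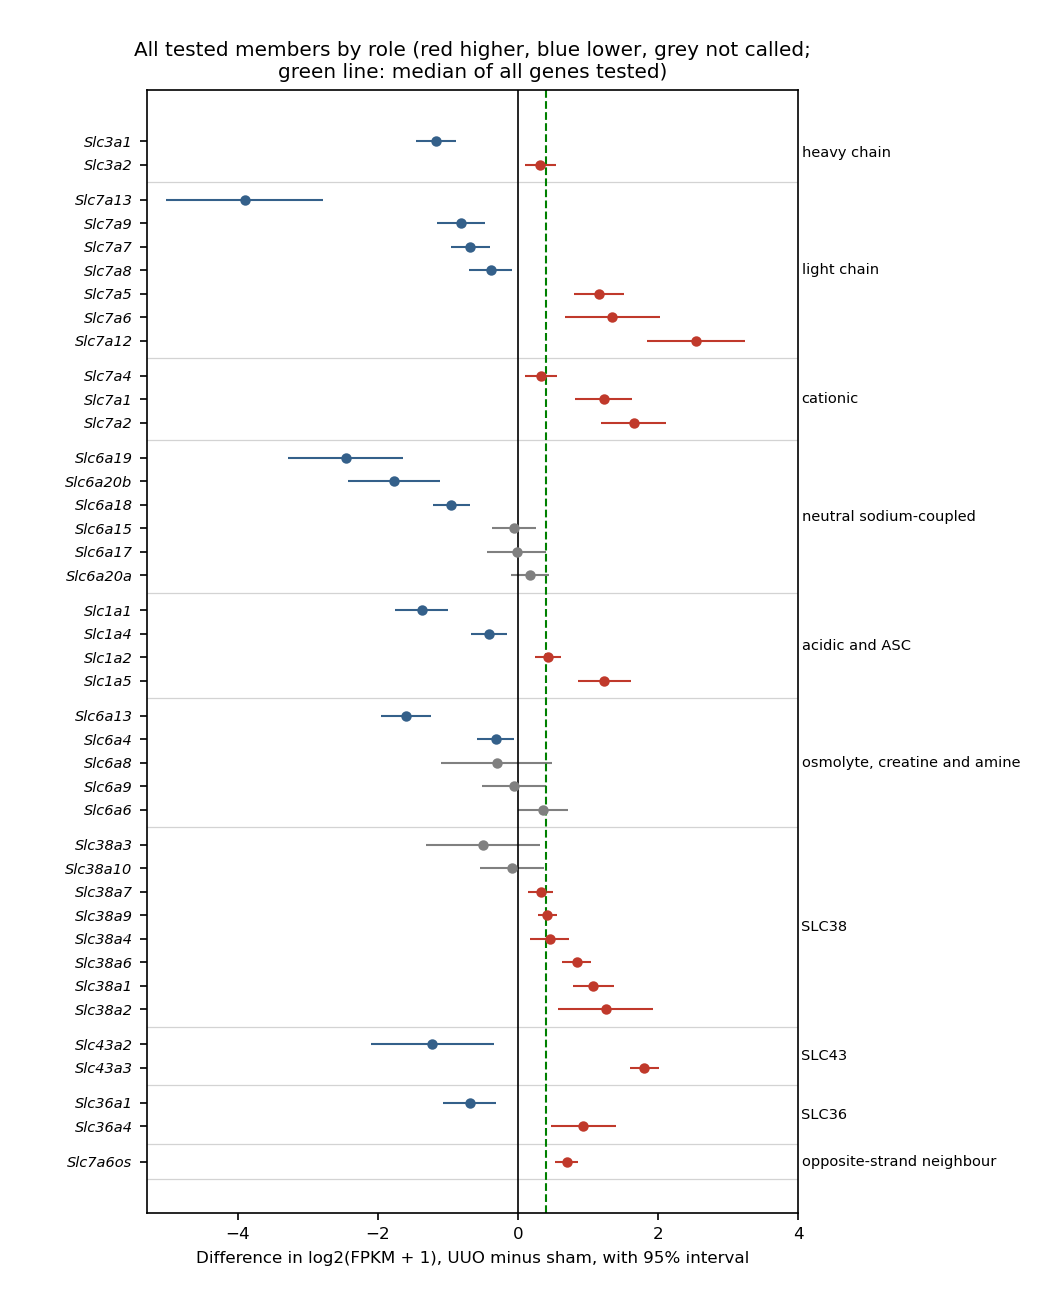
Differences in log2(FPKM + 1), UUO minus Sham, for the 40 tested members by role, with 95% intervals (limma). The points run from -3.91 for Slc7a13 to 2.55 for Slc7a12, and the dashed line marks the median of all genes tested, 0.40.

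**Figure D2:**
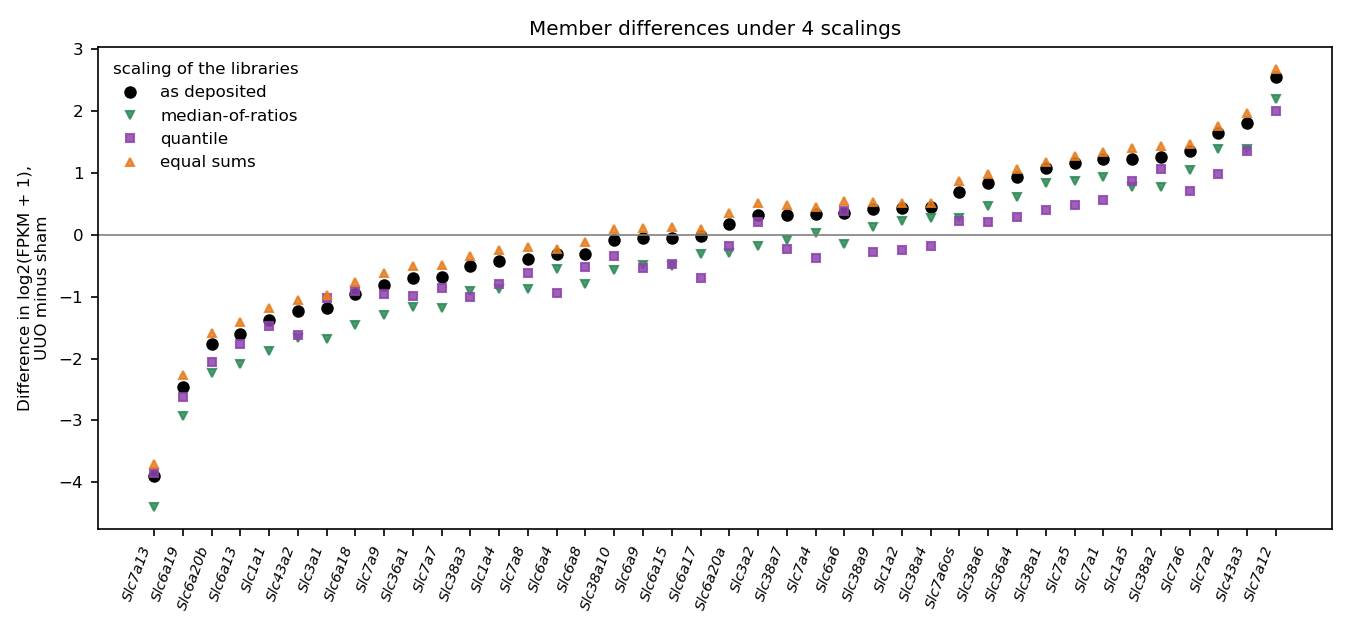
The same differences under the deposited scale and 3 other scalings of the libraries, genes in order of the deposited difference. Genes at both ends keep their sign under all 4, while several of those between about -0.1 and 0.5 cross 0.

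The heavy chain of the brush border fell. Slc3a1 (chr17:85028347-85064243, build GRCm38), whose loss causes cystinuria, stood at 127, 119.6, 114, 134 and 184 FPKM in the UUO libraries, against 299.6, 322, 315, 258 and 329 FPKM in the Sham libraries. UUO 5 was the highest UUO library and all UUO values lay below all Sham values. The level was 2.24-fold lower in UUO kidneys (difference -1.18 ± 0.13; limma, adjusted p = 1.37e-05). Here and in later results, fewer cells of a type and less RNA per cell cannot be told apart in a bulk sample. Slc3a2 (chr19:8706882-8723369), the heavy chain of the blood side, stood at 38.1, 31.8, 28.3, 31.3 and 37.3 FPKM in the UUO libraries, against 25.1, 25.0, 23.7, 28.4 and 29.9 FPKM in the Sham libraries. Its groups overlapped, and a difference of 0.32 ± 0.10 (limma, adjusted p = 0.0119) turned to -0.17 under median-of-ratios scaling. Part of the Slc3a1 gene overlaps Prepl on the opposite strand, and no source used here says whether fragments were counted by strand.

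Slc7a13 (chr4:19818725-19842218), the aspartate, glutamate and cystine light chain AGT1 that joins Slc3a1 in the last segment of the proximal tubule, had the largest fall of the members and ranked 6th among all 13202 genes tested. It stood at 67.4, 14.0, 10.7, 77.4 and 57.1 FPKM in the UUO libraries, against 527, 535, 568, 448 and 572 FPKM in the Sham libraries. UUO 2 and UUO 3 were the lowest, and all UUO values lay far below the Sham values. The mean was 11.7-fold lower (difference -3.91 ± 0.51; limma, adjusted p = 4.38e-05) and the difference lay between -4.19 and -3.51 with any single library left out. Slc7a13 alone made up 2.08% to 11.9% of the summed level of the 43 genes in UUO kidneys, against 35.8% to 39.0% in Sham kidneys.

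The other light chain of Slc3a1 is Slc7a9 (chr7:35448796-35466036), b0,+AT, which exchanges cystine and cationic amino acids for neutral ones at the brush border and is mutated in cystinuria. It stood at 18.9, 17.2, 14.9, 22.6 and 22.4 FPKM in the UUO libraries, against 38.6, 36.8, 39.2, 23.5 and 34.6 FPKM in the Sham libraries. Sham 4 was the lowest Sham library and lay just above the highest UUO value. Slc7a9 was 1.80-fold lower in UUO (difference -0.81 ± 0.15, or -0.94 without Sham 4; limma, adjusted p = 0.00068 with all libraries).

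Slc7a7 (chr14:54369442-54417780), y+LAT1, lets cationic amino acids out on the blood side and is mutated in lysinuric protein intolerance. It stood at 17.8, 20.9, 14.4, 19 and 21.3 FPKM in the UUO libraries, against 31.5, 28.0, 35.6, 24.4 and 33.5 FPKM in the Sham libraries. Every UUO library lay below every Sham library, and the mean was 1.64-fold lower (difference -0.69 ± 0.13; limma, adjusted p = 0.000514). Slc7a8 (chr14:54722209-54781946), LAT2, which lets neutral amino acids out, stood at 19.1, 17.1, 11.3, 18.9 and 19.4 FPKM in the UUO libraries, against 25.0, 23.0, 22.3, 19.4 and 22.7 FPKM in the Sham libraries. The highest UUO value (UUO 5) and the lowest Sham value (Sham 4) were 19.4 FPKM each to 3 digits, with UUO 5 below Sham 4. The difference was -0.39 ± 0.14 (limma, adjusted p = 0.0228). It was -0.26 without UUO 3 (adjusted p = 0.0154), and the call was lost without Sham 1 (adjusted p = 0.0553) and on equal sums (adjusted p = 0.185).

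The start regions of 3 of these falling genes are shown because each holds a match to a motif of HNF1 or HNF4, factors of the mature proximal tubule. The genes were picked for such a match, 14 members had no window, and a part of these factors in the falls was not tested. They are RefSeq windows of build GRCm38.p6 from 250 bases before to 50 bases after a listed transcription start, 5′ to 3′ on the strand of the gene, with the matched letters in capitals. The Slc3a1 window is chr17:85028097-85028396 on the plus strand, that of Slc7a9 is chr7:35448842-35449141 on the plus strand, and that of Slc7a8 is chr14:54781837-54782136 on the minus strand.
Slc3a1: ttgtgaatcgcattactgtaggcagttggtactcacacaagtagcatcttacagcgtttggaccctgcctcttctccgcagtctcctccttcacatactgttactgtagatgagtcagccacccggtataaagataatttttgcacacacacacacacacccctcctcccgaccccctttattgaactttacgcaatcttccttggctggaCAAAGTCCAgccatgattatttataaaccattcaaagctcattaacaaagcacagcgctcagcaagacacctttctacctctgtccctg
Slc7a9: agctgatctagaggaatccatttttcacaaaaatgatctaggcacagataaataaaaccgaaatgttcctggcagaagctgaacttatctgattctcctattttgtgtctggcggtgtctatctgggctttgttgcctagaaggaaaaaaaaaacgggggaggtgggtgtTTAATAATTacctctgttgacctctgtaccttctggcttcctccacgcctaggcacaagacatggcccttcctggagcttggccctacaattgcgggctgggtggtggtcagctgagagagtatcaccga
Slc7a8: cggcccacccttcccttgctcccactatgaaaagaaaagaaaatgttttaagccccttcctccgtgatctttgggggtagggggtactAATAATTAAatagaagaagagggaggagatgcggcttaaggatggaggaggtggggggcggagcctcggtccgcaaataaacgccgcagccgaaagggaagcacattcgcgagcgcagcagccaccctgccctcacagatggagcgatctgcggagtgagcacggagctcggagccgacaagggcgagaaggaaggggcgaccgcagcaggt
The capitals in Slc3a1 are the letters CAAAGTCCA, an HNF4 half-site, starting 39 bases before the start. Those in Slc7a9 and Slc7a8 are TTAATNATT, the core of an HNF1 site, 80 bases before the start on the strand of Slc7a9 and 162 bases before the start on the other strand of Slc7a8. Both strands were searched. CAAAGTCCA was found in 0.475% and TTAATNATT in 1.473% of 32851 windows of the same length, and among the members 48 windows of 29 genes were available, of which 1 held CAAAGTCCA and 3 held TTAATNATT, all in the genes shown. The Slc7a9 windows with TTAATNATT, from different listed starts, overlap and hold the same site, so windows outnumber sites. Another motif, TGATGNAA, in which ATF4 and C/EBP factors bind together, was in 3.969% of all windows and in 3 member windows, those of Slc1a4 and Slc7a7, both lower in UUO. The Slc7a7 windows overlap too and share the same TGATGCAA, and the window chr14:54417895-54418194 also holds another match, TGATGAAA. The 3 motifs do not overlap one another in the printed windows. A match describes letters and was not tested against binding.

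The other 3 SLC7 genes grouped with the light chains rose. Slc7a5, LAT1, the carrier of leucine and other large neutral amino acids in dividing cells, averaged 2.85 ± 0.888 FPKM in UUO and 0.690 ± 0.212 FPKM in Sham kidneys (SD, n = 5 each), 4.12-fold higher in UUO, with no overlap between groups (difference 1.16 ± 0.16; limma, adjusted p = 7.16e-05). Slc7a6, y+LAT2, which exchanges arginine for glutamine, ran from 2.0 to 5.08 FPKM in UUO and from 0.461 to 3.23 FPKM in Sham kidneys. The highest Sham value was Sham 4, where the other Sham libraries stood at 0.461 to 0.614 FPKM. The difference was 1.35 ± 0.30 (limma, adjusted p = 0.00201) and 1.64 without Sham 4. Slc7a12, a neutral amino acid carrier of the mouse named Asc-2, was set in no ratio to Slc3a1 or Slc3a2. It had the largest rise of the members and stood at 6.00, 10.7, 18.3, 5.14 and 13.2 FPKM in the UUO libraries, against 0.473, 0.752, 0.865, 0.447 and 1.93 FPKM in the Sham libraries. Even the lowest UUO library was above the highest Sham library, Sham 5, and the mean was 12-fold higher (difference 2.55 ± 0.32; limma, adjusted p = 3.09e-05).

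Ratios of light to heavy chain within a library differed between the groups. Such a ratio does not depend on the scaling of the library. Of 7 ratios tested, 6 of light to heavy chains and that of Slc6a19 to its partner Tmem27, exact two-sided permutation tests over all 252 relabellings, adjusted over the 7, called all 7. The smallest p that 5 against 5 libraries allow is 0.00794 and the smallest adjusted value here was 0.0111. Slc7a13 over Slc3a1 was 0.529, 0.117, 0.0939, 0.577 and 0.310 in the UUO libraries, against 1.76, 1.66, 1.81, 1.73 and 1.74 in the Sham libraries. The UUO libraries spread from 0.0939 to 0.577, the Sham libraries held a narrow range of 1.66 to 1.81, and the difference in log2 ratio was -2.78 (adjusted p = 0.0111, exact permutation). Slc7a9 over the same heavy chain was 0.149, 0.144, 0.131, 0.168 and 0.122 in the UUO libraries, against 0.129, 0.114, 0.125, 0.0912 and 0.105 in the Sham libraries. These groups overlapped, the difference was 0.34 (adjusted p = 0.0317, exact permutation), and the call was lost without UUO 1, UUO 2, UUO 4, Sham 4 or Sham 5 (adjusted p between 0.0556 and 0.0635).

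On the side of Slc3a2 the ratios moved both ways. Slc7a5 over Slc3a2 was 0.0875, 0.115, 0.123, 0.0553 and 0.0548 in the UUO libraries, against 0.0290, 0.0226, 0.0266, 0.0365 and 0.0165 in the Sham libraries. All UUO values lay above all Sham values, by 1.70 in log2 (adjusted p = 0.0111, exact permutation). Slc7a6 over Slc3a2 was 0.125, 0.137, 0.179, 0.0637 and 0.0941 in the UUO libraries, against 0.0244, 0.0185, 0.0215, 0.114 and 0.0190 in the Sham libraries. Sham 4 lay among the UUO libraries and the other Sham libraries below them, with a difference of 1.96 (adjusted p = 0.0278, exact permutation), or 2.45 without Sham 4. Slc7a7 over Slc3a2 was 0.467, 0.658, 0.509, 0.606 and 0.571 in the UUO libraries, against 1.26, 1.12, 1.5, 0.860 and 1.12 in the Sham libraries. Slc7a8 over Slc3a2 was 0.501, 0.537, 0.401, 0.603 and 0.519 in the UUO libraries, against 0.995, 0.923, 0.941, 0.682 and 0.761 in the Sham libraries. In both, all UUO values lay below all Sham values, by -1.05 for Slc7a7 and -0.75 for Slc7a8 in log2 (adjusted p = 0.0111 each, exact permutation).

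**Figure D3:**
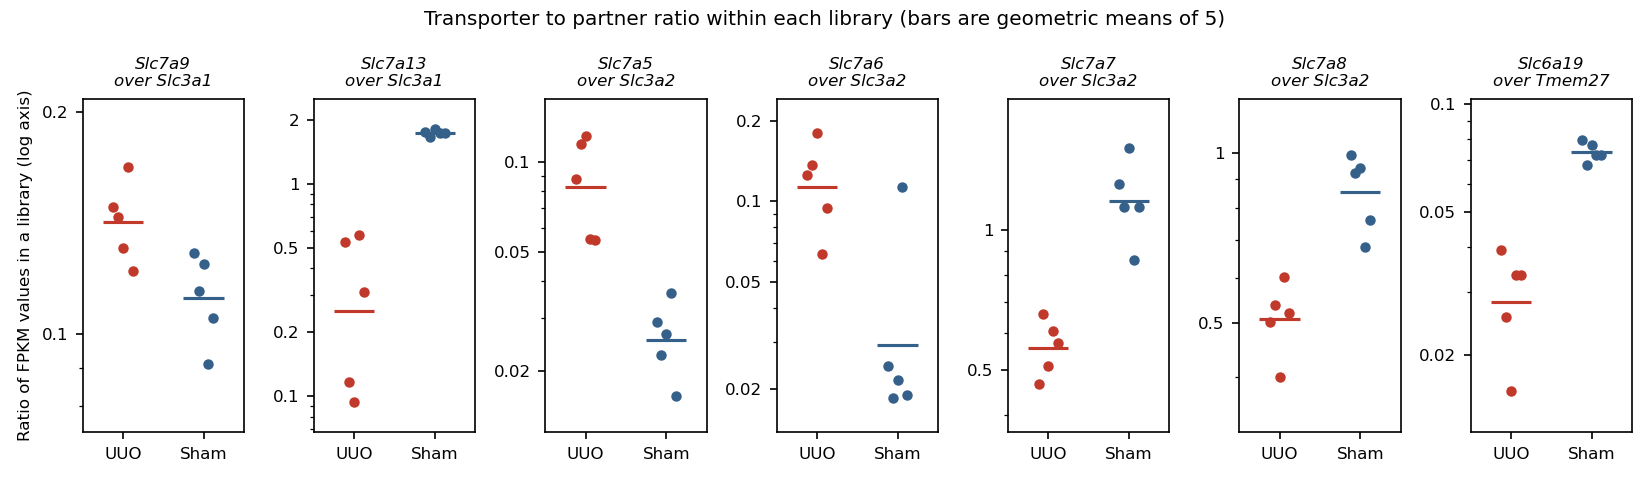
FPKM of a transporter divided by that of its partner within each library (log axis, scaled per panel), UUO left and Sham right, bars at geometric means of 5. Slc7a13 over Slc3a1 is at most 0.577 in UUO libraries and at least 1.66 in Sham libraries, while Slc7a9 over Slc3a1 overlaps between the groups.

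Of the 6 SLC6 genes grouped as sodium-coupled carriers of neutral amino acids, 3 were lower and none higher, beside 16.1% and 58.5% of all genes tested. Members of SLC38 and SLC1, and the glycine carrier Slc6a9, are counted in other groups. Slc6a19 (chr13:73679745-73704865), B0AT1, which takes up most neutral amino acids and is mutated in Hartnup disorder, stood at 15.0, 7.93, 2.93, 16.6 and 15.0 FPKM in the UUO libraries, against 70.2, 58.9, 67.8, 42.4 and 61.0 FPKM in the Sham libraries. UUO 3 was the lowest library, the groups did not overlap, and the mean was 5.24-fold lower (difference -2.46 ± 0.37; limma, adjusted p = 0.00013). Its neighbour Slc6a18 (chr13:73661752-73678023), B0AT3, a carrier of glycine and alanine, stood at 33.7, 32.6, 33.4, 40.6 and 49.1 FPKM in the UUO libraries, against 73.2, 80.3, 73.2, 62.1 and 78.9 FPKM in the Sham libraries. Every UUO value lay below every Sham value, and the mean was 1.94-fold lower (difference -0.95 ± 0.12; limma, adjusted p = 3.63e-05). Slc6a18 exceeded Slc6a19 in level per length in every library of both groups.

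Slc6a20a and Slc6a20b, near copies of the proline carrier gene that lie side by side, differed. Slc6a20b (chr9:123590800-123632565) stood at 8.54, 5.26, 3.74, 14.7 and 13.3 FPKM in the UUO libraries, against 27.7, 33.9, 28.7, 27.9 and 33.0 FPKM in the Sham libraries. UUO 2 and UUO 3 were again lowest, and the mean was 3.32-fold lower (difference -1.77 ± 0.30; limma, adjusted p = 0.000276). Slc6a20a averaged 10.9 ± 1.78 FPKM in UUO and 9.51 ± 1.29 FPKM in Sham kidneys and was not called (95% interval -0.10 to 0.45; limma, adjusted p = 0.215). No source used here says how shared fragments were divided between the copies, and Slc6a20b also overlaps Sacm1l on the opposite strand, so both values are uncertain. Slc6a15 and Slc6a17, neutral carriers best known from the brain, were not called, with 95% intervals of -0.37 to 0.26 and -0.44 to 0.40.

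Slc6a19 reaches the brush border with Tmem27 (collectrin), whose level was 2.23-fold lower in UUO kidneys (difference -1.22 ± 0.25; limma, adjusted p = 0.000998). Tmem27 stood at 382, 311, 185, 495 and 448 FPKM in the UUO libraries, against 882, 869, 879, 588 and 846 FPKM in the Sham libraries. UUO 3 was the lowest library for both genes, and Sham 4 the lowest Sham library. The ratio of Slc6a19 to Tmem27 was 0.0392, 0.0255, 0.0158, 0.0335 and 0.0334 in the UUO libraries, against 0.0796, 0.0678, 0.0772, 0.0722 and 0.0722 in the Sham libraries. All UUO ratios lay below all Sham ratios, with a difference of -1.39 in log2 (adjusted p = 0.0111, exact permutation).

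**Figure D4:**
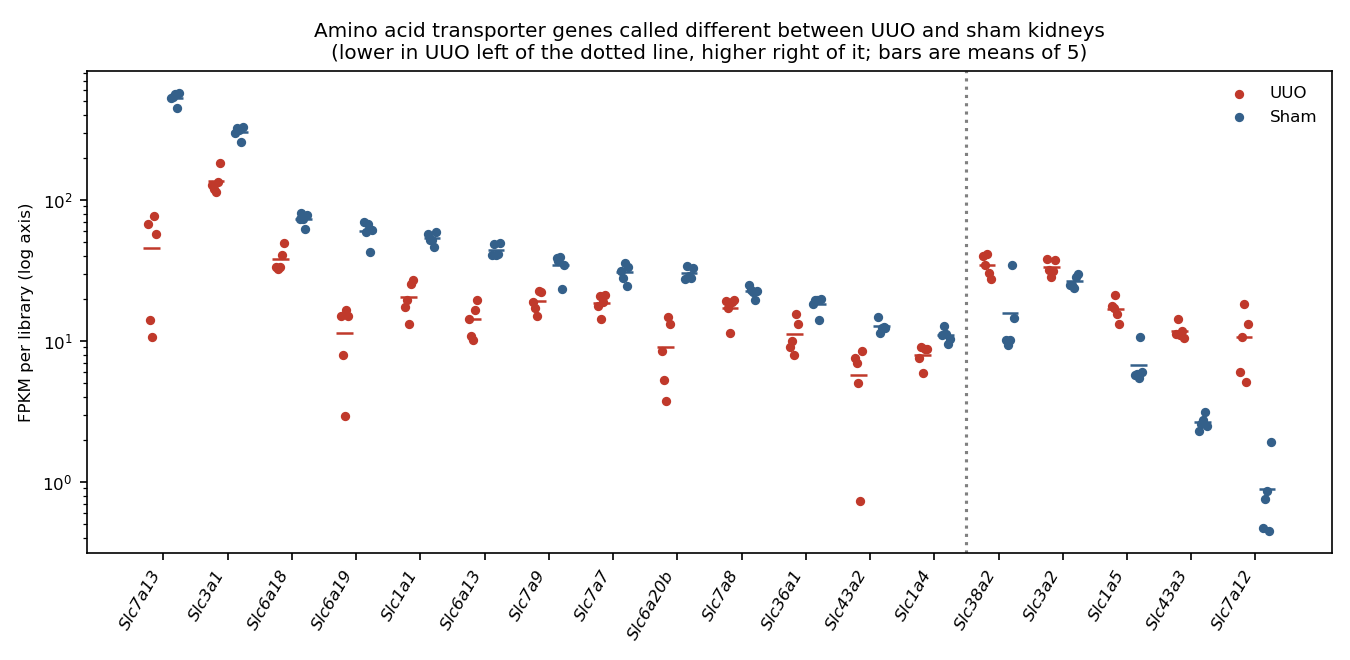
FPKM in each library (log axis) of the 18 called members whose higher group averaged 10 FPKM or more, UUO left of Sham, bars at means of 5. Slc7a13 runs from 10.7 to 77.4 FPKM in UUO kidneys and from 448 to 572 FPKM in Sham kidneys, where it is the highest of these genes, and UUO 4 stands apart for Slc43a2 at 0.734 FPKM.

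Of the acidic amino acid and alanine-serine-cysteine carriers, the SLC1 family, 2 fell and 2 rose, beside 16.1% and 58.5% of all genes tested. Slc1a2, among those that rose, reached 0.5 FPKM in 2 Sham libraries and was tested by virtue of its UUO values. Slc1a1 (chr19:28835049-28913960), EAAT3, the glutamate and aspartate carrier of the brush border, stood at 17.4, 19.4, 13.1, 25.3 and 27.1 FPKM in the UUO libraries, against 56.9, 51.9, 51.6, 46.8 and 59.4 FPKM in the Sham libraries. The groups did not overlap, and the mean was 2.61-fold lower in UUO (difference -1.38 ± 0.17; limma, adjusted p = 2.95e-05). It overlaps 4430402I18Rik on the opposite strand. Slc1a5 (chr7:16781340-16798274), ASCT2, the glutamine exchanger of dividing cells, stood at 17.8, 17, 21.0, 15.5 and 13.3 FPKM in the UUO libraries, against 5.73, 5.87, 5.43, 10.7 and 6.07 FPKM in the Sham libraries. Sham 4 was the highest Sham library and still below every UUO library, and the mean was 2.50-fold higher in UUO (difference 1.23 ± 0.17, or 1.39 without Sham 4; limma, adjusted p = 7.19e-05).

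The relative Slc1a4, ASCT1, a serine and alanine exchanger, moved the other way. It stood at 7.52, 9.03, 5.88, 8.74 and 8.83 FPKM in the UUO libraries, against 11, 12.9, 11.2, 9.59 and 10.3 FPKM in the Sham libraries. The highest UUO value lay below the lowest Sham value (difference -0.42 ± 0.12; limma, adjusted p = 0.00688), and the call was lost on equal sums (-0.24, adjusted p = 0.0811). Slc1a2, the glutamate carrier GLT-1 of astrocytes, averaged 0.999 ± 0.231 FPKM in UUO and 0.477 ± 0.0505 FPKM in Sham kidneys (difference 0.43 ± 0.09; limma, adjusted p = 0.000849) and turned to -0.25 under quantile normalization.

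Cationic amino acid carriers were called higher, 3 of 3, beside 58.5% of all genes tested. Among them Slc7a2 reached 0.5 FPKM in 1 Sham library and Slc7a1 in 4. Both passed the filter only with their UUO values, so their places in this count are no independent result. Slc7a2, CAT2, which supplies arginine and is inducible in macrophages, ran from 1.45 to 5.07 FPKM in UUO and from 0.208 to 0.509 FPKM in Sham kidneys, 9.76-fold higher by the means (difference 1.65 ± 0.21; limma, adjusted p = 3.47e-05). Slc7a1, CAT1, the widespread arginine carrier, ran from 2.55 to 3.64 FPKM in UUO and from 0.434 to 1.89 FPKM in Sham kidneys. The highest Sham value was Sham 4, the groups did not overlap, and the difference was 1.22 ± 0.18, or 1.40 without Sham 4 (limma, adjusted p = 0.000122). Slc7a4, a relative with no settled transport activity, averaged 1.79 ± 0.258 FPKM in UUO and 1.23 ± 0.278 FPKM in Sham kidneys, with overlap (difference 0.33 ± 0.10; limma, adjusted p = 0.0136). That difference lies below the median of 0.40 over all genes tested, its call was lost under median-of-ratios scaling (0.02, adjusted p = 0.868), and it turned to -0.37 under quantile normalization. Beside these rises, 6 of 6 macrophage and monocyte markers were higher, with summed levels of 553 to 1055 FPKM in UUO libraries and 23.9 to 36.9 FPKM in Sham libraries, as were 5 of 5 fibroblast markers at 253 to 527 FPKM in UUO libraries and 14.1 to 21.0 FPKM in Sham libraries, with no marker of either list at 0 in all Sham libraries. Markers of injured tubule were higher in 5 of 5, at 382 to 1105 FPKM in UUO libraries and 1.68 to 5.58 FPKM in Sham libraries, and those of neutrophils in 3 of 3, at 18 to 374 FPKM in UUO libraries and 0.76 to 1.40 FPKM in Sham libraries. Markers of T and NK cells were higher in 3 of 3 tested, at 5.10 to 14.5 FPKM in UUO libraries and 0.420 to 1.28 FPKM in Sham libraries, and those of podocytes in 3 of 3, at 34.2 to 58.6 FPKM in UUO libraries and 23.3 to 31.6 FPKM in Sham libraries. Endothelial markers were higher in 2 of 4 and lower in none, with overlapping sums of 36.2 to 51.7 FPKM in UUO libraries and 18 to 47.3 FPKM in Sham libraries. The highest Sham sum was that of Sham 4, and without it the Sham sums reached at most 21.8 FPKM and did not overlap. The part of any of these cells in the rises was not tested.

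SLC38 carriers bring glutamine, alanine and serine into cells with sodium or sit on lysosomes. Of these, 6 of 8 were called higher and none lower, beside 58.5% and 16.1% of all genes tested. Slc38a4, Slc38a7 and Slc38a9 turned under other scalings. Slc38a1 and Slc38a4, both in this count, reached 0.5 FPKM in 1 Sham library each and were tested by virtue of their UUO values. Slc38a2 (chr15:96687394-96699698), SNAT2, the system A carrier induced by amino acid shortage and by high salt, stood at 39.9, 34.3, 41.5, 30.3 and 27.4 FPKM in the UUO libraries, against 10.1, 9.35, 10.1, 34.7 and 14.6 FPKM in the Sham libraries. Sham 4 lay within the UUO range and the other Sham libraries far below it. The mean was 2.20-fold higher in UUO (difference 1.25 ± 0.31; limma, adjusted p = 0.00345) and the difference was 1.57 without Sham 4.

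Slc38a1, SNAT1, ran from 1.60 to 2.60 FPKM in UUO and from 0.209 to 0.832 FPKM in Sham kidneys without overlap (difference 1.08 ± 0.13; limma, adjusted p = 2.47e-05), and Slc38a6 averaged 4.04 ± 0.627 FPKM in UUO and 1.81 ± 0.155 FPKM in Sham kidneys (difference 0.84 ± 0.09; limma, adjusted p = 1.53e-05), a call lost under quantile normalization (0.21, adjusted p = 0.13). Smaller rises were called for Slc38a4 (SNAT4), a system A carrier of the cell surface, and for the lysosomal Slc38a7 and Slc38a9, the last an arginine sensor for mTORC1, with differences of 0.45, 0.32 and 0.42 (limma, adjusted p = 0.00742, 0.00472 and 0.0001). Slc38a3, SNAT3, which takes up glutamine for ammonia production in the proximal tubule, ran from 0.952 to 7.41 FPKM in UUO and from 4.30 to 8.02 FPKM in Sham kidneys. The UUO values spread more widely than the Sham values, the groups overlapped, and the gene was not called (95% interval -1.32 to 0.32; limma, adjusted p = 0.238). Slc38a10 was not called either (95% interval -0.54 to 0.37).

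Of the 5 tested members that carry osmolytes, creatine and amines, none was called higher and 2 were lower, beside 58.5% and 16.1% of all genes tested. Slc6a13 (chr6:121300227-121337733), GAT2, a carrier of GABA and taurine on the blood side of the proximal tubule, stood at 14.2, 10.8, 10.1, 16.7 and 19.4 FPKM in the UUO libraries, against 40.4, 48.9, 40.7, 41.1 and 49.3 FPKM in the Sham libraries. The groups did not overlap and the mean was 3.10-fold lower in UUO (difference -1.60 ± 0.16; limma, adjusted p = 7.46e-06). Slc6a6, the taurine carrier, ran from 39.0 to 74.0 FPKM in UUO and from 37.8 to 46.3 FPKM in Sham kidneys and missed the threshold (95% interval -0.000337 to 0.72; limma, adjusted p = 0.0657), but passed it without UUO 1 (difference 0.47, adjusted p = 0.0161).

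The creatine carrier Slc6a8 ran from 9.50 to 35.1 FPKM in UUO and from 14.5 to 31.0 FPKM in Sham kidneys and was not called (95% interval -1.10 to 0.49), nor was the glycine carrier Slc6a9 (95% interval -0.52 to 0.40). UUO 2 and UUO 5 were high for Slc6a8, at 32.7 and 35.1 FPKM, and the other UUO libraries stood between 9.50 and 14.9 FPKM. The serotonin carrier Slc6a4 averaged 0.746 ± 0.298 FPKM in UUO and 1.16 ± 0.186 FPKM in Sham kidneys, a difference of -0.32 ± 0.12 (limma, adjusted p = 0.0331) that was lost without UUO 1, UUO 2, UUO 3 or any Sham library other than Sham 4, with adjusted p between 0.0505 and 0.0803. The betaine carrier Slc6a12 (BGT1), known from the medulla, was not tested and ran from 0.0491 to 0.236 FPKM in UUO and from 0.0776 to 2.80 FPKM in Sham kidneys, where Sham 4 was the highest. Sham 4 was also the highest library for the medullary and salt-response genes given above, whose part in these values was not tested.

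The uniporters of SLC43 moved in opposite directions. Slc43a2 (chr11:75531694-75577575), LAT4, which lets branched-chain and aromatic amino acids out on the blood side, stood at 7.54, 6.92, 5.02, 0.734 and 8.55 FPKM in the UUO libraries, against 14.9, 11.3, 12.4, 12.6 and 12.3 FPKM in the Sham libraries. UUO 4 was far below the other UUO libraries, and all UUO values lay below all Sham values. A difference of -1.23 ± 0.40 (limma, adjusted p = 0.0158) shrank to -0.79 when UUO 4 was left out (adjusted p = 0.000447). Slc43a3 (chr2:84936579-84958509), the purine nucleobase carrier, stood at 11.2, 14.3, 11.1, 11.8 and 10.4 FPKM in the UUO libraries, against 2.28, 2.56, 2.76, 3.12 and 2.50 FPKM in the Sham libraries. The groups were far apart with little spread within either, and the mean was 4.46-fold higher in UUO (difference 1.81 ± 0.09; limma, adjusted p = 9.08e-08). Slc43a1, LAT3, was not tested and ran from 0.314 to 0.777 FPKM in UUO and from 0.0402 to 0.156 FPKM in Sham kidneys.

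Among the proton-coupled carriers, Slc36a1 (chr11:55204350-55236330), PAT1, a carrier of small neutral amino acids on lysosomes and at the surface, stood at 9.05, 9.97, 7.92, 15.6 and 13.2 FPKM in the UUO libraries, against 18.4, 19.4, 19.6, 14.1 and 19.8 FPKM in the Sham libraries. UUO 4 lay above Sham 4 and the other values did not cross, with a difference of -0.69 ± 0.17, or -0.78 without Sham 4 (limma, adjusted p = 0.00323 with all libraries). Slc36a4, PAT4, ran from 2.67 to 3.61 FPKM in UUO and from 0.216 to 2.10 FPKM in Sham kidneys without overlap (difference 0.93 ± 0.21; limma, adjusted p = 0.00192) and was not called under quantile normalization (0.28, adjusted p = 0.217). Slc36a2, PAT2, a proline and glycine carrier that is also a surface marker of brown fat cells, was not tested: it stood at 0.635, 0.744, 1.14, 0.466 and 0.283 FPKM in the UUO libraries, against 0, 0, 0.0219, 5.61 and 0.0729 FPKM in the Sham libraries. Sham 4 was the highest library for Slc36a2 as for the 6 genes of brown fat, whose part in this value was not tested. The neighbour gene Slc7a6os averaged 7.33 ± 0.656 FPKM in UUO and 4.13 ± 0.253 FPKM in Sham kidneys (difference 0.70 ± 0.07; limma, adjusted p = 1.01e-05).

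The falls ran beside lower levels of markers of several nephron segments. Of all genes tested, 16.1% were lower and 58.5% higher. All 11 proximal tubule markers were lower in UUO, with summed levels of 479 to 1928 FPKM in UUO libraries and 2939 to 3961 FPKM in Sham libraries, as were all 5 markers of its last segment (S3), at 55.0 to 84.7 FPKM in UUO libraries and 419 to 569.7 FPKM in Sham libraries, and no marker was at 0 in all libraries of either group. Collecting duct markers were lower in 5 of 6 and higher in none, with sums of 43.1 to 101 FPKM in UUO libraries and 194 to 577 FPKM in Sham libraries, the highest Sham sum being that of Sham 4. Markers of the distal convoluted tubule were lower in 2 of 3 and higher in 1, at 11.2 to 29.3 FPKM in UUO libraries and 43.1 to 84.5 FPKM in Sham libraries. Those of the thick ascending limb were lower in 1 and higher in 1 of 3, with overlapping sums of 303 to 761 FPKM in UUO libraries and 672 to 1242 FPKM in Sham libraries. The part of these segments in the falls was not tested. UUO 2 and UUO 3, the lowest libraries for Slc7a13, Slc6a19 and Slc6a20b, also had the lowest sums of proximal tubule markers, 832 and 479 FPKM, against 1228, 1928 and 1834 FPKM in UUO 1, UUO 4 and UUO 5. Sham 4 was lowest among the Sham libraries at 2939 FPKM. As a description with no test, members were set per 1000 FPKM of these summed markers. On that scale Slc7a13 averaged 33.1 in UUO and 144 in Sham kidneys and Slc6a19 averaged 8.92 in UUO and 16.2 in Sham kidneys, both without overlap, and no other member had all UUO values below all Sham values. Slc7a9 averaged 18.2 in UUO and 9.29 in Sham kidneys on that scale and Slc7a7 averaged 18.2 in UUO and 8.31 in Sham kidneys, with UUO above Sham. Slc3a1 averaged 131 in UUO and 82.9 in Sham kidneys, with overlap. The summed proximal tubule markers used for this scale were 2.93-fold lower in UUO, and the summed S3 markers were 6.63-fold lower. Slc7a13, a gene of the last segment, was not set against the S3 sum, so its fall beyond that of its own segment was not tested.

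Of 22 gene symbols for other amino acid and peptide transport outside these families, 14 were listed, and all 14 were tested. Cltrn and Tmem27 are names of the same gene, as are Slc66a1 and Pqlc2, so symbols outnumber genes. Of the 14 tested, 3 were higher, 6 lower and 5 not called, beside 58.5% higher and 16.1% lower of all genes tested. The median difference was -0.16, beside 0.40 over all genes tested. Lower genes included the mitochondrial aspartate-glutamate carriers Slc25a13 (-1.56 ± 0.12; limma, adjusted p = 1.05e-06) and Slc25a12 (-0.69 ± 0.07; limma, adjusted p = 5e-06). The ornithine carrier Slc25a15 (-1.06), the peptide carrier Slc15a2 (-0.86), the aromatic amino acid carrier Slc16a10 (-0.22) and Tmem27 (-1.22) were also lower. The higher genes were Slc15a3 (1.75 ± 0.14; limma, adjusted p = 1.73e-06) and Slc15a4 (0.62), histidine and peptide carriers of lysosomes, and the lysosomal cystine carrier Ctns (0.35).

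The share of each listed transcript in its gene was tested for 34 transcripts of 15 members, and 0 were called (limma on arcsine square-root shares, at least 10 percentage points), beside 0.75% of 14003 transcripts tested. At an unadjusted p below 0.05 there were 8 (23.5%), beside 15.7% of all transcripts tested, in Slc36a1, Slc43a3, Slc6a20a and Slc7a7. Of these, 3 were of Slc7a7: Slc7a7-202 made up 89.8% ± 4.28 in UUO and 69.7% ± 8.20 in Sham kidneys (limma, adjusted p = 0.0639), and Slc7a7-206 2.01% ± 1.65 in UUO and 13.0% ± 5.87 in Sham kidneys (adjusted p = 0.0772). Both were called where genes needed a sum of at least 5 FPKM, with adjusted p = 0.0401 and 0.0472 over 8696 transcripts. Shares within a gene are tied to each other, so the 8 were not independent. The tested transcripts of Slc36a1 had equal and opposite differences, as did those of Slc6a20a. Shares are of listed transcripts, which held a median of 97.6% of the gene value over 10555 genes but 1.56% for Slc6a19, 34.6% for Slc7a9 and 52.1% for Slc1a5. Slc7a7 overlaps Oxa1l on the opposite strand.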

How the data were processed

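Stranded libraries of total RNA from whole left kidneys were read on a NovaSeq instrument, per the labels' protocols. Per the submitters' processing notes, reads passed through cutadapt, HISAT2 and StringTie on build GRCm38; their versions, the annotation release and the threshold for listing a gene are not stated there. The authors deposited FPKM values, fragments scaled by length and library size, for 13920 genes and 26686 transcripts. The header names no unit; FPKM was inferred from the column sums and from the length-weighted values of listed transcripts over the length of all exons, which held a median of 97.6% of the gene value over 10555 genes and in 0 genes exceeded it by more than 0.1%. FPKM are no counts, so counting error is unknown. An empty line was dropped from each file, and 14 symbols occurred for more than 1 gene.

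Values were analysed as log2(FPKM + 1) in limma 3.58.1 under R 4.3.3 (lmFit, eBayes with trend), over the 13202 genes that reached 0.5 FPKM in 5 libraries; the other 718 were not tested. Adjustment was by Benjamini-Hochberg, with calls below 0.05. Such differences understate changes of low genes, and folds are ratios of mean FPKM. Ratios of 2 genes were compared by exact permutation. Transcript shares were compared by limma where every library held 1 FPKM or more of the gene and the transcript averaged 5% or more in either group. Tables and figures used Python 3.11.15 with numpy 2.4.6, pandas 2.3.3 and, for plots, matplotlib 3.10.9. The tests were tried on simulated data. Alternatives were median-of-ratios, quantile and equal-sum scaling, pseudocounts of 0.1 and 0.01, other filters, no trend, a replicate block, and each library left out. Same-numbered UUO and Sham libraries deviated from their group means with correlations between -0.255 and 0.149, so numbers were not taken to pair them. The members, lists and motifs were chosen with earlier results of these data known. Any member could be named; those called and averaging 10 FPKM or more in the higher group, and partner genes, are given in every library. Other genes come from lists fixed with the design or are described as chosen after their values were seen.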

Additional observations from a re-analysis of the deposited data

Results flagged for a closer look

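In each member and group of 5 libraries it was asked whether the highest or lowest library lay further from its nearest neighbour than 0.71 of the range of the group, Dixon's 95% value. This held in 13 of 86 groups, and Sham 4 was the outlying library in 7 of the 13. Dixon's value gives about 5% for independent normal values, whereas these groups share the same libraries. No such count was made over all genes, so this number is not shown to be particular to the members.

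Sham 4 was high for Slc36a2 (5.61 FPKM, the other Sham libraries at 0 to 0.0729), Slc38a2 (34.7 FPKM, others 9.35 to 14.6), Slc1a5 (10.7 FPKM, others 5.43 to 6.07), Slc7a6 (3.23 FPKM, others 0.461 to 0.614), Slc7a1 (1.89 FPKM, others 0.434 to 0.614) and Slc6a12 (2.80 FPKM, others 0.0776 to 0.857). It was low for Slc36a1 (14.1 FPKM, others 18.4 to 19.8). In the ratio of Slc7a6 to Slc3a2 it stood at 0.114, the other Sham libraries at 0.0185 to 0.0244, the 1 outlying library among 14 groups of ratios.

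Of the other Sham libraries, Sham 3 was low for Slc6a9 (3.72 FPKM, others 6.02 to 6.86) and Sham 5 high for Slc7a12 (1.93 FPKM, others 0.447 to 0.865). Among UUO libraries, UUO 1 was high for Slc38a4 (1.51 FPKM, others 0.626 to 0.819) and low for Slc7a4 (1.35 FPKM, others 1.82 to 2.01), UUO 3 low for Slc7a8 (11.3 FPKM, others 17.1 to 19.4) and UUO 5 high for Slc3a1 (184 FPKM, others 114 to 134).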

How the results depend on the processing

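Each member difference was recomputed under 29 settings, which gave 1158 values: in 1115 a called member kept its direction and call or an uncalled member stayed uncalled, in 7 a called member turned, and 21 called members kept both throughout. Of the 8 uncalled members, 6 changed sign, in 28 values. Median-of-ratios scaling (factors 1.15 to 1.25 for UUO and 0.80 to 0.95 for Sham libraries) left 4 doubled and 11 halved members and 10 lower among the other transport genes. Quantile normalization left 10 higher and 3 doubled members, and 1 higher and 10 lower among the other transport genes. The values of called members that turned were -0.088 for Slc38a7 and -0.17 for Slc3a2 under median-of-ratios scaling, and -0.25 for Slc1a2, -0.18 for Slc38a4, -0.23 for Slc38a7, -0.28 for Slc38a9 and -0.37 for Slc7a4 under quantile normalization. Calls were lost for Slc38a4, Slc38a9 and Slc7a4 under median-of-ratios scaling, for Slc36a4, Slc38a6 and Slc3a2 under quantile normalization, and for Slc1a4, Slc6a4 and Slc7a8 on equal sums. Slc38a3, Slc38a10, Slc6a15 and Slc6a17 were called lower under median-of-ratios or quantile scaling, and Slc6a20a and Slc6a6 higher on equal sums. Pseudocounts of 0.1 and 0.01 gave 12 and 13 doubled members. With 1 library left out, 18 to 19 members were higher, 12 to 14 lower, 9 to 10 doubled and 6 to 8 halved (18, 14, 10 and 8 without Sham 4). The ratio of Slc7a9 to Slc3a1 then lay between 0.27 and 0.40. With genes of at least 5 FPKM, 2 transcript shares were called.

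The labels do not say whether the replicate numbers pair the libraries, and the numbers were not taken to pair them. With a replicate block 18 members were higher and 13 lower, and Slc6a4 was not called (adjusted p = 0.0606). Exact sign-flip permutations of the ratios within such a block cannot go below p = 0.0625, so none of the log2 ratio differences passed: 0.34 for Slc7a9 and -2.78 for Slc7a13 over Slc3a1, 1.70 for Slc7a5, 1.96 for Slc7a6, -1.05 for Slc7a7 and -0.75 for Slc7a8 over Slc3a2, and -1.39 for Slc6a19 over Tmem27. The values carry no depth, so for members near 0 counting error is unknown.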
